A study of Mus musculus with 2 samples.

Results

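Secretory progenitors of the mouse ileal crypt were compared by whether a transcript of Mki67 was found in the cell. Cells were taken from the class that the authors' deposited cell table names SEC-PRO, and a cell counted as with Mki67 when it held 1 or more raw unique molecular identifiers (UMIs, 1 per captured RNA molecule) of that gene and as without when it held 0. Of the 11562 cells listed for the study, 1624 were SEC-PRO. Of these, 1173 were with Mki67 (619 in replicate 1 and 554 in replicate 2) and 451 were without (163 in replicate 1 and 288 in replicate 2). Mki67 chose the sides and was left out of every sum and test.

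The cells came from Atoh1CreER-T2;R26RTom mice, in which a tamoxifen-dependent recombinase expressed with Atoh1 switches on a lasting red reporter (Tom). Both libraries and both sides are titled WT and share this genotype and the treatment, which was 2 injections of tamoxifen at 1 mg/mL, 24 h apart, with harvest 12 h after the second. Live Tom+ cells were sorted, so a cell that never expressed Atoh1 or its Cre, and is not the progeny of one that did, is not sampled except as sort carry-over. The labels give neither the age of the mice nor whether the libraries come from separate animals, so the spread between the 2 libraries may be technical. The main tests below, on SEC-PRO alone, shrank the dispersion of the typical gene fully to the trend over all genes (infinite median prior degrees of freedom). Their standard errors and p-values thus rest mainly on counting error and a common spread, and not on each gene's own spread between the libraries. In the fit that also held ISC cells some genes had larger standard errors. For the mucin gene Muc2 the SE was 0.31 there, against 0.06 in SEC-PRO alone.

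Ki-67, the protein of Mki67, coats mitotic chromosomes and is made in cycling cells, with transcript levels that climb through S phase to mitosis and fall after division. Its absence from a cell's RNA can therefore mean early G1, exit from the cycle, or a transcript that was not captured. In the crypt, Atoh1 commits a cell to the secretory lineage, and such progenitors divide a few more times before they mature as goblet, Paneth, enteroendocrine or tuft cells. The delta ligand Dll1 on these progenitors activates Notch in their neighbours, which keeps those neighbours out of the secretory lineage.

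Cells with Mki67 held more UMIs in both libraries, so counts were thinned before any comparison. The sides were set on raw counts, so a deeper cell is more likely to show an Mki67 UMI. The part of this in the gap in depth and genes found was not tested. The median depth was 5688 and 3935.5 UMIs per cell with Mki67 in replicates 1 and 2, against 3592 and 2803 without, and the interquartile ranges of the sides overlapped. The median number of genes found was 2257 and 1795 with Mki67, against 1633 and 1363.5 without. The median mitochondrial share was 4.25% and 4.00% with Mki67, against 3.70% and 3.52% without. Each cell was thinned at random to 2000 UMIs, which left out 58 and 63 cells with Mki67 and 52 and 87 without. The thinned counts were added up within each library and side, giving 4 sums of 561 and 491 cells with Mki67 and of 111 and 201 cells without. Levels below are CPM, the UMIs of a gene per 1000000 UMIs, scaled by TMM, in these 4 sums, always with replicate 1 before replicate 2.

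**Figure D1:**
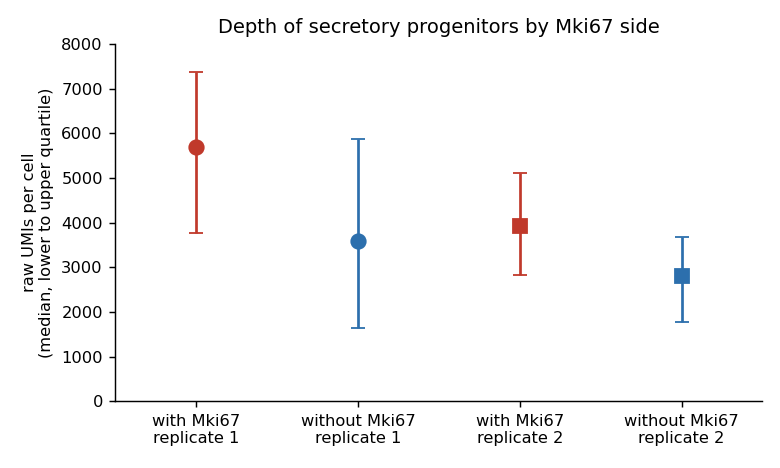
Raw UMIs per SEC-PRO cell before thinning, by library and side. Points are medians and bars span the lower to upper quartile. The medians with Mki67 (5688 and 3935.5 UMIs) lie above those without (3592 and 2803 UMIs) in both replicates, and the ranges overlap.

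The split at 1 UMI is not a clean division of cells. Exactly 1 Mki67 UMI was held by 111 and 131 cells, just inside the threshold, and 10 or more UMIs by 112 and 43 cells. At 2000 UMIs per cell, 62.4% and 59.4% of SEC-PRO cells showed an Mki67 UMI, with exact 95% binomial intervals of 58.6% to 66.0% and 55.6% to 63.1%. The class named TUFT, whose mature cells are not expected to cycle, showed 9.23% and 12.6% at the same depth, and the class named GOBLET-PRE 3.64% and 6.13%. How many cells with 1 UMI carry stray RNA, and in how many cells with 0 a transcript was missed, was not tested. Intervals cover counting error only.

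Markers of secretory progenitors were present on both sides of the split. All levels in this paragraph, those of single genes included, come from the second thinning without TMM scaling. The 6 markers of secretory progenitors (Atoh1, Dll1, Dll4, Hes6, Spdef and Gfi1) summed to 545 and 558 CPM with Mki67, against 653 and 654 CPM without, and to 119 and 186 CPM in the class named ISC. They summed to 715 and 626 CPM in the class named GP, 528 and 505 CPM in GOBLET-PRE and 540 and 423 CPM in PANETH-PRE, so they set SEC-PRO apart from ISC and not from these neighbouring classes. The 5 stem cell markers summed to 822 and 736 CPM with Mki67, against 820 and 756 CPM without, and to 3356 and 2102 CPM in ISC. Most of the sum in SEC-PRO was Slc12a2, at 672 and 560 CPM with Mki67, against 599 and 567 CPM without. Olfm4 was at 74.0 and 84.5 CPM with Mki67, against 117 and 99.5 CPM without, and Lgr5 at 2.67 and 10.2 CPM with Mki67, against 4.50 and 12.4 CPM without. Goblet markers summed to 42448 and 38364 CPM with Mki67, against 34491 and 37838 CPM without. Enteroendocrine markers stayed at 8.91 to 45.8 CPM and tuft markers at 0 to 13.5 CPM across the 4 sums. The 5 immune markers summed to 641 and 725 CPM with Mki67, against 910 and 851 CPM without, nearly all of it Cd74, while Ptprc, Cd3e and Cd79a were at 0 on both sides. The 5 enterocyte markers summed to 580 and 382 CPM with Mki67, against 387 and 336 CPM without, mostly Fabp2, with Alpi at 0. The 4 stroma markers summed to at most 0.891 CPM. The 5 Paneth markers summed to 7025 and 10499 CPM with Mki67, against 7923 and 10336 CPM without. Barcodes of at most 50 UMIs, taken as free RNA, held 57651 and 106313 CPM of the same Paneth markers. No SEC-PRO barcode occurred in both libraries.

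Across the transcriptome a small share of the genes tested passed between cells with and without Mki67. Genes of mitosis, histones and the ribosome were the largest groups of calls among the lists examined. edgeR's quasi-likelihood test, with library as a term, was run on 7210 genes. It found 186 genes higher with Mki67, or 2.58% of those tested, and 119 lower, or 1.65%, at a Benjamini-Hochberg adjusted p under 0.05. These shares are the background for the list counts in SEC-PRO below. The median log2 difference over all genes, with minus without, was -0.0020, and 90% of genes lay between -0.63 and 0.87. Scaled by library size alone, the split was 220 higher and 86 lower. The number called depended on depth and method, with 524 of 9116 genes in unthinned counts and 34 of 7210 with DESeq2's Wald test. Of the genes higher with Mki67, 79 were on the G2/M list or carried a histone gene name, and of the genes lower with Mki67, 66 were cytosolic ribosomal protein genes. A change in a sum of cells can come from more cells that express a gene or from more RNA per cell, and the sums do not tell these apart.

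Genes of G2 and mitosis rose with Mki67. Of 59 tested members of the list, 55 were higher with Mki67 and none was lower, with a median log2 difference of 2.26, against -0.0020 for all genes. Values were above 0 in both libraries for 58 of the 59. The exceptions to the call were Bub3, Cdkn3, Cks1b and Pttg1, which were named after their values were seen. The other 4 members (Espl1, Mybl2, Pimreg and Troap) were too low to be tested. The group's count fell to 20 with DESeq2's Wald test and to 43 without the library term, and its median stayed between 1.57 and 2.56 in every alternative.

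Many promoters of these genes carry short elements known from cell cycle regulation, and 4 of them are shown because their genes had the smallest p-values among list members with 1 promoter and a matching element. The cell cycle genes homology region (CHR) binds the MuvB core, which represses G2/M genes in resting cells as part of the DREAM complex and activates them with B-Myb and FoxM1, and the CCAAT box binds NF-Y. Sequences are from RefSeq on GRCm38.p6, run 5' to 3' along the gene's own strand, and cover 200 bases before the annotated gene start and 30 from it. Capitals mark TTTGAA or TTCGAA (CHR) and CCAAT on either strand.
Top2a, chr11:99024160-99024389, minus strand: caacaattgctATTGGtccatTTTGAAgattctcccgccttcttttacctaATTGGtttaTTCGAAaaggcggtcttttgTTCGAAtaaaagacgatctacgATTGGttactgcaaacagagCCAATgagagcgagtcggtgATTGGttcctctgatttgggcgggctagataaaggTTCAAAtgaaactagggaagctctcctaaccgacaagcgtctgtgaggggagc
Cenpf, chr1:189688057-189688286, minus strand: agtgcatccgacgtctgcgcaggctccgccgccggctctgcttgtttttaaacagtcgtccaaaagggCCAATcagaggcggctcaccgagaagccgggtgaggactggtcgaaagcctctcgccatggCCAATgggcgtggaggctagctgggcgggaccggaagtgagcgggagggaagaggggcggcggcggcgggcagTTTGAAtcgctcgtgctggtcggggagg
Ube2c, chr2:164769729-164769958, plus strand: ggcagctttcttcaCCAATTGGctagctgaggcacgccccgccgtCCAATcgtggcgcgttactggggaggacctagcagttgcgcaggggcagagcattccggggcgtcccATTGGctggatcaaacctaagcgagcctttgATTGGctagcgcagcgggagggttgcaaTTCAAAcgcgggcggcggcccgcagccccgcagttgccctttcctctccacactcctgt
Kif11, chr19:37376182-37376411, plus strand: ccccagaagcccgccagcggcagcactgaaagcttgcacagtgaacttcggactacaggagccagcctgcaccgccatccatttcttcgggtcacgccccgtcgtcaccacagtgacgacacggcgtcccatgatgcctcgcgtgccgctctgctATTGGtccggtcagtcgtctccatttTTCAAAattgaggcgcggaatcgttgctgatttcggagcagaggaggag

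Top2a holds 4 CHR letters in this window, and Ube2c and Kif11 hold 1 each, starting 29 and 19 bases before the gene start. In Cenpf the 1 match starts at base 3 of the transcript. Of 50 RefSeq promoters (250 bases before to 50 after the start) of 47 of the 55 G2/M genes called, 76.0% held a CHR, against 19.2% of all 32851 promoters and 14.2% of the 7276 promoters of genes tested. A CCAAT box was in 76.0% of them, against 37.4% of all and 38.1% of those of genes tested, and both elements in 64.0%, against 7.52% and 6.06%. The E2F letters TTTCCCGC or TTTGGCGC, known from genes of the G1/S transition, were in 4.00% of them, against 1.56% of all promoters, 3.61% of the promoters of genes tested and 25.5% of the promoters of the replication list. CHR and CCAAT matches can share 1 base and were then counted for both. A match is a description of the sequence, and the genes were chosen by the call.

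Among regulators of mitotic entry, Ccnb1, the cyclin that activates Cdk1, stood at 83.8 and 86.4 CPM with Mki67, against 18.4 and 10.0 CPM without. Its log2 difference was 2.70 ± 0.39 (SE) and the adjusted p 1.13e-09. Cdk1 itself stood at 87.3 and 72.3 CPM with Mki67, against 9.18 and 35.1 CPM without (1.60 ± 0.33, adjusted p 8.02e-05). For both genes the lowest sum with Mki67 was above the highest without. Plk1, a kinase of mitotic entry and spindle assembly, had 73.2 and 60.3 CPM with Mki67, against 9.18 and 7.52 CPM without (2.97 ± 0.47, adjusted p 2.84e-08). Aurkb, the kinase of the chromosomal passenger complex, had 66.2 and 54.2 CPM with Mki67, against 13.8 and 5.01 CPM without (2.81 ± 0.48, adjusted p 4.99e-07). The checkpoint kinase Bub1 had 36.2 and 48.2 CPM with Mki67, against 13.8 and 2.51 CPM without, the last being 1 UMI. All 5 lost their call with DESeq2 and in no other alternative.

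Genes of the spindle, the kinetochore and cell division were higher as well. Kif11, a motor that pushes spindle poles apart, had 141 and 131 CPM with Mki67, against 9.18 and 15.03 CPM without, a log2 difference of 3.36 ± 0.35 (adjusted p 1.07e-18). Nusap1, which bundles spindle microtubules, had 154 and 233 CPM with Mki67, against 27.5 and 15.03 CPM without (3.38 ± 0.29, adjusted p 9.88e-28). Racgap1, a part of the centralspindlin complex that directs cytokinesis, had 89.1 and 118 CPM with Mki67, against 9.18 and 7.52 CPM without (3.70 ± 0.42, adjusted p 3.90e-16). Its partner Kif23 had 102 and 86.4 CPM with Mki67, against 4.59 and 17.5 CPM without (2.82 ± 0.38, adjusted p 4.54e-11). In these genes the sides were far apart relative to the libraries.

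The same held for Aspm, a spindle pole protein, with 74.99 and 91.4 CPM with Mki67, against 0 and 7.52 CPM without. The sums without Mki67 held 3 UMIs of Aspm in all and those with Mki67 176, a ratio of 17.4 with a counting interval of 5.86 to 85.3. Anln and Prc1, which organise the cleavage furrow and the central spindle, differed by 3.31 ± 0.45 and 2.86 ± 0.27 on the log2 scale. Tpx2, Hmmr and Ckap2l, all spindle proteins, differed by 2.95 ± 0.34, 3.13 ± 0.33 and 3.33 ± 0.44. Sgo2a, which protects centromeric cohesion, differed by 3.23 ± 0.45. The kinetochore genes Cenpf and Cenpe were more abundant. Cenpf had 383 and 289 CPM with Mki67, against 87.2 and 30.1 CPM without (2.67 ± 0.21, adjusted p 1.94e-32). Cenpe had 317 and 266 CPM with Mki67, against 87.2 and 25.1 CPM without (2.57 ± 0.22, adjusted p 7.66e-28).

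Chromosome structure genes moved with them. Top2a, the topoisomerase that untangles sister chromatids, had 706 and 778 CPM with Mki67, against 138 and 188 CPM without, a log2 difference of 2.15 ± 0.13 (adjusted p 3.60e-54). In thinned cells a Top2a UMI was found in 53.1% and 62.7% of cells with Mki67, against 20.7% and 26.9% without, and in 3.08% and 12.6% of TUFT cells. The median raw depth of these TUFT cells was 4149.5 and 3164 UMIs, against 5930 and 4177 for the cells with Mki67 and 5130 and 3380 for those without. In GOBLET-PRE the Top2a share was 4.21% and 5.12%. The share without Mki67 was thus above those of TUFT and GOBLET-PRE in both libraries. In replicate 2 its 95% interval (20.9% to 33.6%) overlapped that of TUFT (6.48% to 21.5%). Of 24 tested genes of condensin, cohesin and chromosome structure, 13 were higher and none lower, with a median of 0.60. Hmgb2, a chromatin protein that is plentiful in dividing cells, had 2161 and 2499 CPM with Mki67, against 877 and 864 CPM without (1.43 ± 0.08, adjusted p 4.49e-70). The condensin subunits Smc4 and Smc2 differed by 1.71 ± 0.17 and 2.00 ± 0.22. The count of 13 was 3 with DESeq2, 7 without the library term and 7 at 4000 UMIs per cell.

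**Figure D2:**
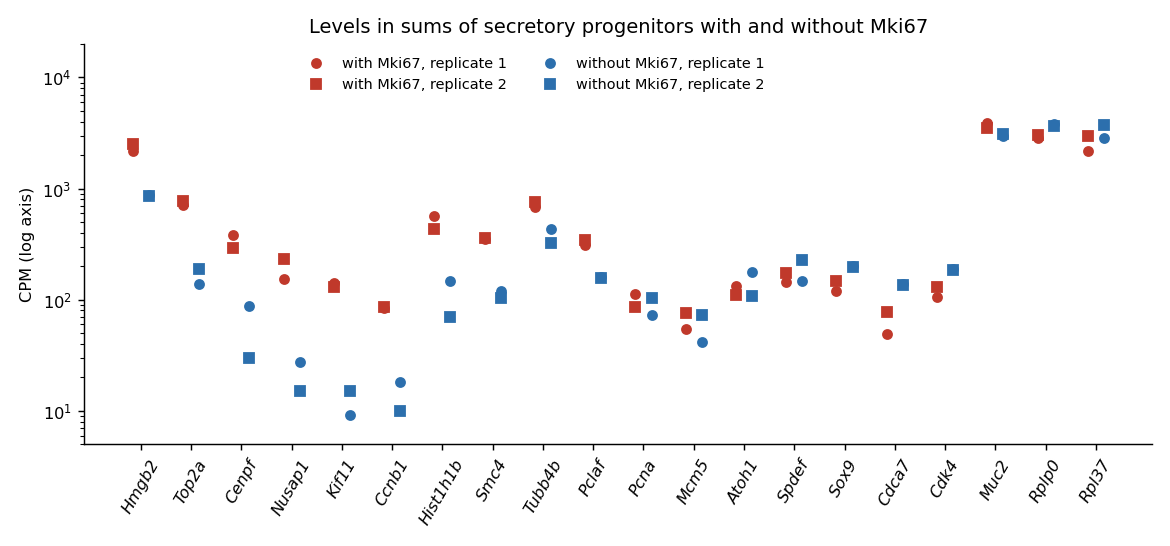
CPM on a log axis of 20 genes in the 4 sums of SEC-PRO cells, with Mki67 left of without. Circles are replicate 1 and squares replicate 2. Mitotic genes such as Kif11 (141 and 131 CPM with, 9.18 and 15.03 CPM without) are separated, while Pcna, Mcm5 and Atoh1 overlap.

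Histone genes rose as well. Of 20 tested members of the list, 14 were higher with Mki67 and none lower, with a median log2 difference of 1.61. The linker histone gene Hist1h1b had 571 and 435 CPM with Mki67, against 147 and 70.2 CPM without (2.30 ± 0.17, adjusted p 3.49e-39). Hist1h2ae had 450 and 360 CPM with Mki67, against 101 and 77.7 CPM without (2.18 ± 0.18), and Hist1h2ap had 426 and 409 CPM with Mki67, against 119 and 100 CPM without (1.95 ± 0.17). The sides did not overlap in any of these 3 genes. Histone genes of the replication-dependent clusters are near-identical copies whose mRNAs mostly end without a poly(A) tail. Their counts in a 3' poly(A)-primed library are a fraction of the RNA, and the assignment of reads between copies is uncertain. The count of 14 was 7 with DESeq2 and 10 without the library term.

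Genes of DNA replication and the G1/S transition did not move as a group. Of 53 tested members, 4 were higher with Mki67 and 1 was lower, with a median of 0.06. The counts were 8 higher and 6 lower both in unthinned counts and in depth-matched cells, and the median lay between -0.27 and 0.09 over the alternatives. Pclaf, which binds the sliding clamp PCNA, had 312 and 344 CPM with Mki67, against 161 and 155 CPM without (1.08 ± 0.16, adjusted p 2.33e-09). Rrm1, the large subunit of ribonucleotide reductase, had 106 and 133 CPM with Mki67, against 45.9 and 67.6 CPM without (1.04 ± 0.24, adjusted p 0.000691). E2f8, a repressor in the E2F family, differed by 1.48 ± 0.37 (adjusted p 0.00252). The clamp loader subunit Rfc5 (1.45 ± 0.40) and the helicase subunit Mcm3 (-0.68 ± 0.22), named after their values were seen, made up the rest of the calls. Pcna, the clamp itself, had 113 and 86.4 CPM with Mki67, against 73.5 and 103 CPM without (0.08 ± 0.22, adjusted p 0.946). Mcm5, another helicase subunit, had 54.7 and 75.3 CPM with Mki67, against 41.3 and 72.7 CPM without (0.16 ± 0.27, adjusted p 0.905). Both genes overlapped between sides, and the standard errors leave room for a modest difference either way. Of the repair list, 2 of 22 tested genes were higher, among them Rad54b, of which the sums without Mki67 held 2 UMIs.

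The contrast between the lists was also seen per cell. UMIs of the G2/M list had a median of 11 per 2000 in cells with Mki67 of both libraries, against 2 in cells without. By Mki67 UMIs in the cell, the replicate 1 medians were 2 at 0 UMIs, 4 at 1 UMI, 7 at 2 to 4 UMIs and 18 at 5 or more, and those of replicate 2 were 2, 5, 8 and 21. The replication list had medians of 4, 4.5, 4 and 4 in replicate 1 and of 6, 6, 7 and 5 in replicate 2 along the same steps. The steps also differed in median raw depth, with 5130, 5792.5, 5645 and 6182 UMIs in replicate 1. In replicate 2 the depths were 3380, 3692, 3998 and 4838 UMIs. The part of depth in the step values was not tested. Cells without Mki67 were not free of mitotic RNA, since 25.2% and 21.4% of them held 5 or more G2/M UMIs, against 78.6% and 77.2% of cells with Mki67. In the class named GP the share was 2.17% and 1.55%, and in TUFT it was 2.31% and 17.2%. These values describe the cells on either side of the threshold and carry no test.

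**Figure D3:**
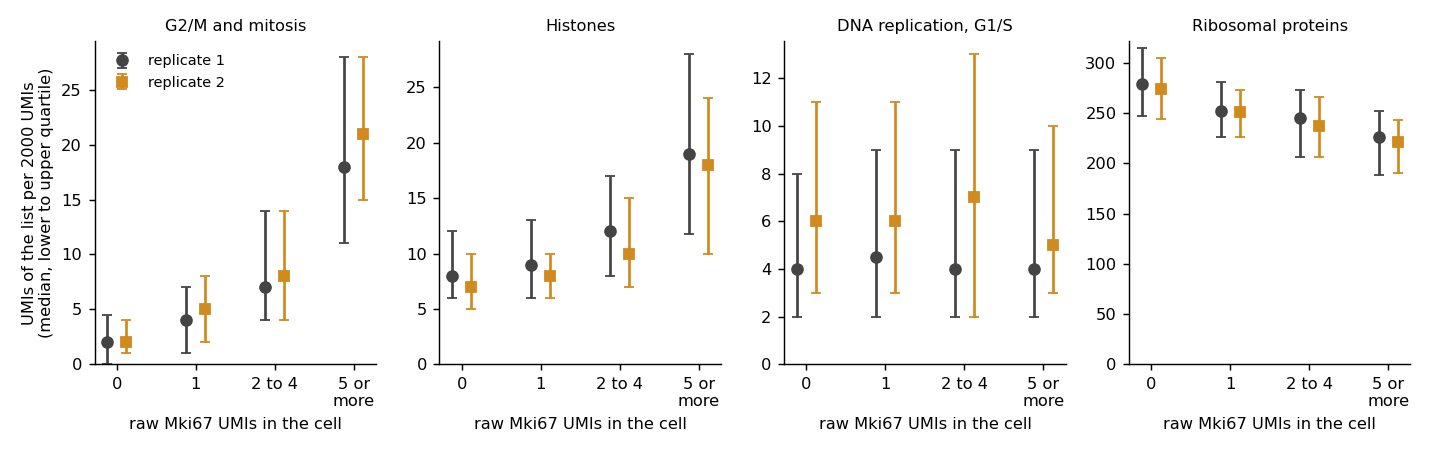
UMIs of 4 gene lists per cell thinned to 2000 UMIs, by raw Mki67 UMIs in the SEC-PRO cell. Points are medians, bars span the lower to upper quartile, and colours are the libraries. G2/M medians go from 2 UMIs in cells with 0 Mki67 UMIs to 18 and 21 in cells with 5 or more, the replication list stays between 4 and 7, and ribosomal protein UMIs are lower at each step.

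The cytoskeleton of division and the regulators of cycle exit were mixed. Of 17 tested tubulin and related genes, 6 were higher and none lower, with a median of 0.20. Tubb4b had 685 and 754 CPM with Mki67, against 432 and 321 CPM without (0.99 ± 0.11, adjusted p 2.02e-16), while Tuba1c and Tubb5 differed by 1.24 ± 0.19 and 0.76 ± 0.13. The count of 6 was 1 with DESeq2, 2 without the library term and 4 at 4000 UMIs per cell. Of 19 tested inhibitors and exit genes, Cdkn2d alone was called. This inhibitor of Cdk4 and Cdk6 had 41.5 and 29.1 CPM with Mki67, against 0 and 7.52 CPM without, or 76 UMIs against 3, a ratio of 7.52 with a counting interval of 2.48 to 37.3. Cdkn1a (p21) had 76.8 and 77.3 CPM with Mki67, against 64.3 and 70.2 CPM without (0.18 ± 0.25, adjusted p 0.866). Cdkn1b (p27) had 121 and 88.4 CPM with Mki67, against 68.9 and 77.7 CPM without (0.44 ± 0.23, adjusted p 0.428). No inhibitor was lower with Mki67 by this test. Cdkn1c (p57) was too low to be tested.

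Regulators of G1 gave 1 call, a gene lower with Mki67. Cdk4, the kinase partner of D cyclins, had 105 and 131 CPM with Mki67, against 188 and 185 CPM without (-0.64 ± 0.18, adjusted p 0.00959), the single call among 13 tested. Ccnd1 had 154 and 186 CPM with Mki67, against 220 and 251 CPM without (-0.46 ± 0.16, adjusted p 0.0605). Ccnd2 had 699 and 787 CPM with Mki67, against 808 and 957 CPM without (-0.25 ± 0.09, adjusted p 0.0850). Both cyclins missed the threshold, although their sums did not overlap, and Cdk4 lost its call in 6 of 14 alternative tests. Cdk4 overlaps Tspan31 on the opposite strand, and the sources do not state whether counting used strand.

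Calls among secretory commitment genes were each lost in some of the alternatives. Of 19 tested, 1 was higher and 3 were lower, against 2.58% and 1.65% of all genes tested. The median log2 difference was -0.30. Values were below 0 in both libraries for 10 of the 19, against 28.7% of all genes tested. Atoh1 had 133 and 110 CPM with Mki67, against 179 and 108 CPM without (-0.19 ± 0.19, adjusted p 0.799). Spdef, which acts downstream in goblet and Paneth maturation, had 143 and 174 CPM with Mki67, against 147 and 225 CPM without (-0.26 ± 0.16, adjusted p 0.568). Neither gene separated the sides. An Atoh1 UMI was found in 20.9% and 19.6% of thinned cells with Mki67, against 31.5% and 17.4% without, and in 6.15% and 2.30% of TUFT cells. Gfi1, Dll4, Hes6, Foxa3 and Creb3l1 did not pass, with differences of -0.23, -0.30, -0.36, -0.36 and -0.08.

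Sox9, Sox4 and Dll1 were lower with Mki67. Sox9, a factor of progenitors and Paneth cells, had 120 and 148 CPM with Mki67, against 202 and 195 CPM without (-0.54 ± 0.17, adjusted p 0.0358). Sox4 had 116 and 109 CPM with Mki67, against 230 and 133 CPM without (-0.62 ± 0.18, adjusted p 0.0198). Dll1 had 106 and 88.4 CPM with Mki67, against 179 and 123 CPM without (-0.61 ± 0.20, adjusted p 0.0471). The sides did not overlap in these 3 genes. Of 14 alternative tests, the call was lost in 10 for Sox9, 6 for Sox4 and 13 for Dll1. Xbp1, a factor of secretory capacity, was higher, with 354 and 489 CPM with Mki67, against 225 and 388 CPM without (0.43 ± 0.13, adjusted p 0.0177), and lost the call in 7. Dll1 was the single call among 9 tested Notch genes, and the Notch target Hes1 differed by -0.36 ± 0.26 (adjusted p 0.647).

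Stem cell genes gave 1 call in 16, with a median log2 difference of -0.02 (-0.30 in replicate 1 and 0.08 in replicate 2). Cdca7, a chromatin protein of cycling cells that is high in crypt stem cells, had 49.4 and 77.3 CPM with Mki67, against 138 and 135 CPM without (-1.06 ± 0.22, adjusted p 7.46e-05), and lost its call in 2 of 14 alternative tests. Its difference lay between -1.48 and -0.48 over the alternatives, single libraries included. In the second thinning, without TMM scaling, Cdca7 had 63.3 and 87.6 CPM with Mki67, against 94.6 and 114 CPM without. Olfm4 had 84.7 and 70.3 CPM with Mki67, against 147 and 103 CPM without, and just missed the threshold (-0.66 ± 0.22, adjusted p 0.0521). Lgr5 was too low to be tested, with a UMI in 0.535% and 2.04% of cells with Mki67, against 0.901% and 1.49% without, and in 6.92% and 2.30% of TUFT cells. No gene passed among 18 tested of the Wnt list or 13 of the EGF receptor list.

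Products of mature secretory cells did not separate the sides in a stable way. Of 29 tested goblet genes, 2 were higher, with a median of 0.13. Muc2, the gel-forming mucin, had 3912 and 3516 CPM with Mki67, against 2952 and 3124 CPM without (0.28 ± 0.06, adjusted p 0.000352). When cells of the sides were instead matched on raw depth, its difference was -0.11 (adjusted p 0.263), and it was 0.04 in unthinned counts and 0.21 at 4000 UMIs per cell, neither of which passed. Over 14 alternative tests Muc2 passed in 7. Clca1, a secreted mucus protein, differed by 0.32 ± 0.07 (adjusted p 0.000320) and lost its call in 4 of 14 alternative tests, depth matching among them. The deeper cells lay on the side with Mki67. Of 19 tested Paneth genes, Itln1 was higher and none lower, with a median of -0.09. Of 35 tested genes of the unfolded protein response, Dnajc10 (0.60 ± 0.12) and Xbp1 were higher. Itln1 and Dnajc10 each lost the call in 4 of 14 alternative tests. None of 46 genes of protein translocation and transport and none of 28 mucin glycosylation genes passed.

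**Figure D4:**
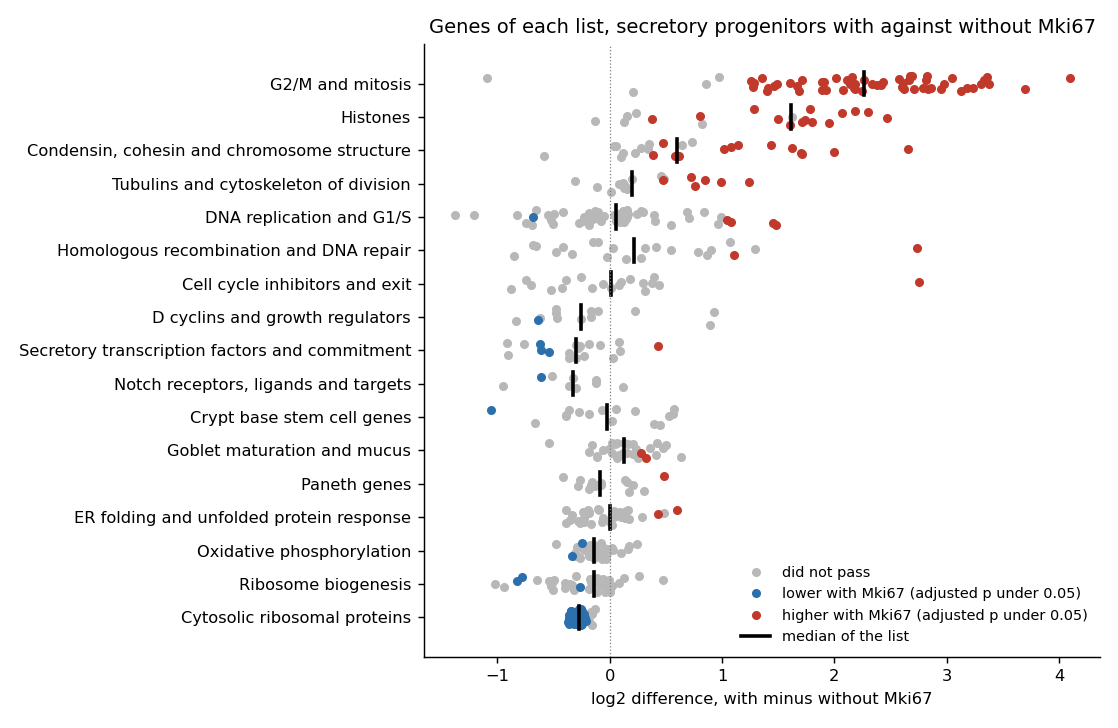
Log2 difference, with minus without Mki67, of each tested gene in 17 lists. Red points are higher and blue points lower with Mki67 at an adjusted p under 0.05, grey points did not pass, and black bars are medians. The G2/M list (median 2.26) and histones (1.61) lie to the right, ribosomal proteins (-0.27) form a narrow group left of 0, and replication genes (0.06) spread around 0.

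Ribosomal protein genes were lower with Mki67 by a small and even amount. Of 50 tested members of the list, 43 were lower and none higher, with a median log2 difference of -0.27 and a range of -0.37 to -0.13. Values were below 0 in both libraries for 49. Rplp0, of the ribosomal stalk, had 2858 and 3010 CPM with Mki67, against 3783 and 3688 CPM without (-0.35 ± 0.06, adjusted p 2.81e-06). Rpl37 had 2192 and 2951 CPM with Mki67, against 2838 and 3756 CPM without (-0.36 ± 0.06). The sides overlapped for Rpl37, where replicate 2 with Mki67 exceeded replicate 1 without, and not for Rplp0. The list made up 11.8% and 11.6% of UMIs with Mki67, against 14.0% and 13.6% without.

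The decrease followed the raw Mki67 UMI count, along steps that also differed in median raw depth as given above. The part of depth in it was not tested. Median ribosomal protein UMIs per 2000 were 279 and 274 in cells with 0 Mki67 UMIs, 252.5 and 251 with 1, 245 and 237 with 2 to 4, and 226 and 221 with 5 or more. The list's median stayed between -0.33 and -0.21 in every alternative. The count of 43 was 0 with DESeq2, 0 without the library term, 6 at 4000 UMIs per cell and 29 with no filter on low counts. Shares are of a fixed total per cell, and the G2/M list took 0.681% and 0.676% of UMIs with Mki67, against 0.175% and 0.141% without. The part of this fixed total in the ribosomal decrease was not tested.

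Translation of ribosomal protein mRNAs is controlled through a run of pyrimidines at the transcript start, the 5' terminal oligopyrimidine (TOP) tract. A run near the annotated gene start is shown for the 2 called genes with the smallest p-values that hold one. The runs of Rps18 and Rps9 start 2 and 6 bases before that start. Whether they are TOP tracts was not tested. The window and strand are as above, and capitals mark runs of 7 or more C or T that touch bases -5 to +10 from the start on the gene's own strand.
Rps18, chr17:33955636-33955865, minus strand: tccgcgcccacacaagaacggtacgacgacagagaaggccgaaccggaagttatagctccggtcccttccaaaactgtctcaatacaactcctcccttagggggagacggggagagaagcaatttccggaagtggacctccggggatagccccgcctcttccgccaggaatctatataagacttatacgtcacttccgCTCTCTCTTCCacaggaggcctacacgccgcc
Rps9, chr7:3703841-3704070, plus strand: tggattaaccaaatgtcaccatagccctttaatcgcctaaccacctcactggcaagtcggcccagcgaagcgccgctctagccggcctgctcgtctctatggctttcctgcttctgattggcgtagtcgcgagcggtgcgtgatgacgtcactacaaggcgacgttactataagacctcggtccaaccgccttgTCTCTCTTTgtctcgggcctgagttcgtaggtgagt

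Of 38 promoters of 31 of the 43 called genes, 34.2% held such a run, against 16.3% of all promoters and 15.6% of those of genes tested. None of these 38 held both a CHR and a CCAAT box. Genes of ribosome assembly gave 3 lower calls among 40 tested, with a median of -0.14. Npm1, a nucleolar chaperone, had 906 and 779 CPM with Mki67, against 1065 and 957 CPM without (-0.27 ± 0.08, adjusted p 0.0386), while Noc2l and Gar1 differed by -0.78 ± 0.25 and -0.83 ± 0.27. Of 14 alternative tests, the call was lost in 6 for Npm1, 10 for Noc2l and 13 for Gar1. Oxidative phosphorylation gave 2 lower calls among 44, against 1.65% of all genes tested. They were Cox4i1 (-0.25 ± 0.08) and Atp5j (-0.33 ± 0.10), which lost their calls in 8 and 10 of 14 alternative tests. None of 13 mitochondrial genome genes and none of 14 glycolysis genes passed.

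The remaining genes with the largest decreases belonged to no single list. Rnase1, a secreted ribonuclease, had 37.1 and 95.4 CPM with Mki67, against 59.7 and 193 CPM without (-0.95 ± 0.21, adjusted p 0.000348), lower within each library while the sides overlapped across libraries. It was at 770 and 923 CPM in the class named PANETH-PRE. Marcksl1, an actin-linked membrane protein, had 29.1 and 40.2 CPM with Mki67, against 55.1 and 90.2 CPM without (-1.08 ± 0.28, adjusted p 0.00462). Gpr180, Msl1, Plekhj1, Trim28 and Cyfip1 differed by -1.19, -1.13, -1.04, -0.82 and -0.73 on the log2 scale, each lower in both libraries, and each lost its call in 6 to 8 of 14 alternative tests. Genes of antigen presentation and interferon response gave 4 lower calls among 18 tested, against 1.65% of all genes tested. Ifitm2 and Ifitm3, membrane proteins that restrict viruses, differed by -0.51 ± 0.14 and -0.73 ± 0.21, the MHC class II chaperone Cd74 by -0.29 ± 0.09, and B2m, named after its value was seen, by -0.38 ± 0.12. Of 14 alternative tests, the call was lost in 4 for Ifitm2, 9 for Ifitm3 and 5 for Cd74. Cd74 made up nearly all of the immune marker sum given above (641 and 725 CPM with Mki67, against 910 and 851 CPM without), and the part of immune RNA in these calls was not tested. Other epithelial classes held Cd74 too, with 1702 and 1275 CPM in ISC and 1694 and 1352 CPM in the class named ENTERO-PRO. In GOBLET-PRE it was at 398 and 412 CPM, and in free RNA at 692 and 554 CPM. Among immediate-early and dissociation genes, Hsp90aa1 (0.35 ± 0.09) and Fosb (0.66 ± 0.19) were higher of 21 tested, and Fosb was at -0.12 in unthinned counts. None of 8 p53 targets, 28 chromatin regulators, 8 enterocyte genes, 2 enteroendocrine genes or 1 tuft gene passed. The enteroendocrine factor Neurog3 was too low for this fit and was tested only in the fit of 8 sums described below. There it had 4.35 and 2.96 CPM with Mki67, against 13.4 and 22.3 CPM without. These levels rest on few UMIs, and the difference did not pass (-2.24 ± 0.79, edgeR adjusted p 0.101).

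The same split in the class named ISC, the other class in which most cells held Mki67, gave calls in the same direction in the G2/M, histone and ribosomal protein lists. ISC held 1317 cells with Mki67 and 975 without. In a fit of 8 sums over 8463 genes, 187 genes were higher with Mki67 in ISC, or 2.21%, and 125 lower, or 1.48%. Of G2/M genes 56 of 62 were higher in ISC, with a median of 1.82, against 2.30 in SEC-PRO in the same fit. Of histones 16 of 20 were higher, and of ribosomal proteins 40 of 50 were lower, with medians of 1.46 and -0.22. Stem cell genes gave 11 lower calls of 22 in ISC, with a median of -0.59, against -0.30 in SEC-PRO in the same fit. The 22 include genes too low for the fit of 4 sums, such as Lgr5. In the fit of 4 sums the median over 16 genes was -0.02. Paneth genes gave 10 lower of 19 in ISC, with a median of -0.34, against -0.09 in SEC-PRO. These differences of list medians were not tested. Free RNA held 57651 and 106313 CPM of the 5 Paneth markers, against 5185 and 8197 CPM in ISC. The part of free RNA in the Paneth calls of ISC was not tested.

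The difference of the differences passed for 2 of the 8463 genes, or 0.0236%, both with the larger value in SEC-PRO. Itln1, a secreted lectin of goblet and Paneth cells, had 935 and 1548 CPM with Mki67 in SEC-PRO, against 551 and 1230 CPM without, and 395 and 1002 CPM with Mki67 in ISC, against 585 and 1372 CPM without. Its difference was 0.54 in SEC-PRO and -0.50 in ISC, 1.03 ± 0.12 apart (adjusted p 2.89e-13). Free RNA held 6041 and 13518 CPM of Itln1, more than any of these sums, and the part of free RNA was not tested. Slc12a2, a chloride cotransporter of crypt base cells, had 641 and 539 CPM with Mki67 in SEC-PRO, against 577 and 568 CPM without, and 620 and 529 CPM with Mki67 in ISC, against 940 and 821 CPM without. Its difference was 0.03 in SEC-PRO and -0.62 in ISC, 0.64 ± 0.14 apart (adjusted p 0.00945). Over 13 alternative tests the difference passed in 4 for Itln1 and in 8 for Slc12a2, and it lay between 0.60 and 1.10 for Itln1 and between 0.59 and 0.77 for Slc12a2. The remaining genes with the smallest p-values did not pass, with Racgap1 2.33 ± 0.58, Lyz1 0.54 ± 0.14 and Tmprss4 0.98 ± 0.26 higher in SEC-PRO and Ppp1r14b at -0.62 ± 0.17, all at an adjusted p of 0.167 or above. Set, Hspd1 and Dmbt1 followed at -0.42, -0.40 and -0.91.

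**Figure D5:**
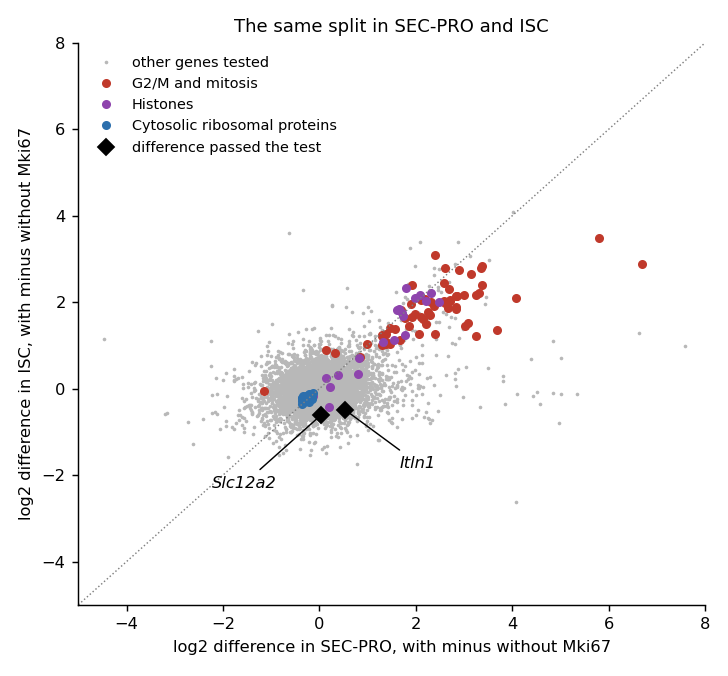
Log2 difference, with minus without Mki67, in SEC-PRO (horizontal) and ISC (vertical) for 8463 genes of the 8-sum fit, with the line of equality dotted. G2/M genes, histones and ribosomal proteins are coloured, and black diamonds are the 2 genes whose differences differed, Itln1 (0.54 and -0.50) and Slc12a2 (0.03 and -0.62).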

How the data were processed

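Raw UMI counts were deposited by the authors as 10x Genomics matrices of 31053 genes in 2 libraries, and reads were counted with Cell Ranger 3.0.2 and STAR on mm10, per the submitters' processing notes. A deposited table lists the cells kept, their class and the percent of mitochondrial UMIs, as the authors computed it. The sources used here do not give how cells were filtered, classed or cleared of doublets, and no doublet caller was run. The libraries held 66021021 and 40869800 UMIs, of which 32656481 and 27014983 were in listed cells, so that a gene of a few CPM rests on few UMIs in a sum.

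The sides, the lists and the named genes were chosen with earlier results of these data known, so counts over lists describe them and carry no test. Each cell was thinned to 2000 UMIs and summed per library and side. Sums were fitted in R 4.3.3 with edgeR 4.0.16 (TMM scaling, filterByExpr, robust quasi-likelihood F-test, library and side as terms, 1 residual degree of freedom, infinite median prior degrees of freedom, threshold 0.05). The median biological coefficient of variation was 0.0330. An SE is the log2 difference divided by the square root of F. Library was a term because both sides of a library are cells of the same sorted sample. A fit of 8 sums with a class by side interaction compared SEC-PRO with ISC. Levels in other classes and in free RNA, and the marker sums and per-cell values, come from a second random thinning without TMM scaling. The ISC levels of Itln1 and Slc12a2 are from the fit of 8 sums.

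Named genes were the 15 largest increases and 10 largest decreases past the threshold that moved alike in each library and averaged 5 or more in log2 CPM (ribosomal protein, mitochondrial, haemoglobin and unnamed models left out), the 3 smallest p of each list, the 5 smallest p of the interaction in each direction, and 28 genes named whatever their result. Of these 28, Lgr5, Neurog3, Myc and Cdkn1c did not pass the filter. Some genes that the rule names are not reported here. Alternatives changed the scaling (DESeq2 size factors, library size alone, abundant genes), the tool (DESeq2 1.42.0), the low-count filter, the library term, the thinning, the depth matching (equal cell numbers in 10 depth bins), the Mki67 threshold, the deepest 5% of cells and the library used. Gene positions are from GENCODE M21, in which 48 of the 94 named genes overlap another annotated gene, 16 on the same strand, so that their counts could be shared. Intervals on shares are exact (Clopper-Pearson) at 95%.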

Additional observations from a re-analysis of the deposited data

Results flagged for a closer look

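Itln1 and Slc12a2 were picked out because the difference between cells with and without Mki67 was not the same in SEC-PRO and ISC. For Itln1 the 2 differences were 1.03 apart on the log2 scale, at 0.54 in SEC-PRO and -0.50 in ISC, with the larger value in SEC-PRO in both libraries (1.33 in replicate 1 and 0.79 in replicate 2). The adjusted p of Itln1 was 2.89e-13 and ranged from 3.01e-14 to 1.00 over 13 alternatives, with 0.373 under scaling by library size alone, where the difference was 1.01. Free RNA held 6041 and 13518 CPM of this gene, and its part was not tested. For Slc12a2 the 2 differences were 0.64 apart, at 0.03 in SEC-PRO and -0.62 in ISC, with 0.75 in replicate 1 and 0.56 in replicate 2. Its adjusted p was 0.00945 and ranged from 6.23e-05 to 1.00 over the same alternatives. ISC cells with Mki67 were deeper than those without (median 6384.5 and 4774 UMIs, against 4978 and 3130.5), as in SEC-PRO.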

How the results depend on the processing

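In the 4 sums the count of genes higher and lower with Mki67 (186 and 119) was 34 and 0 with DESeq2's Wald test, which had 196 genes at an unadjusted p under 0.05. It was 336 and 188 in unthinned counts, 298 and 197 in depth-matched cells and 134 and 30 at 4000 UMIs per cell. With no filter on low counts, 66 genes were lower. With no replicate block, that is without the library term, it was 96 and 2. The count of genes whose difference differed between SEC-PRO and ISC (2) was 1 with library size alone, with TMM from abundant genes and with another thinning seed. It was 0 in depth-matched cells, at 4000 UMIs and with sides set after thinning, where 434, 423 and 358 genes had an unadjusted p under 0.05. It was also 0 with DESeq2 and with no replicate block, where 54 and 204 genes did. With 1 library left no test can be made, and 186 of the called genes kept their direction upward in either library, 118 to 119 downward and 2 of 2 in the interaction. The exception, named after its value was seen, is Lrrc58. Depth matching kept 85.6% of the 305 calls, another thinning seed 77.7%, the fit without the replicate block 32.1% and DESeq2 11.1%.

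Of 68 named genes called, 66 kept their direction in every alternative that gave a value, 20 were called in every alternative test and 48 lost the call in at least 1. Muc2 turned to -0.11 in depth-matched cells (adjusted p 0.263) and Fosb to -0.12 in unthinned counts. Btg2, not called at 0.10, was lower at -0.42 in unthinned counts (adjusted p 0.00388). The causes were not tested. Few UMIs limit genes under about 20 CPM, where sums without Mki67 hold under 10 UMIs.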
